A study of Mus musculus with 120 samples.

Results

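The comparison was between the F2 mice with the most and the fewest heterozygous genotypes across the genome. In each of 60 mice the share of heterozygous calls (H) was taken among all readable calls (A, H or B) at 194 autosomal markers. The 20 mice with the highest share formed the high group and the 20 with the lowest share the low group, and the other 20 mice belonged to neither. Transcripts were not used to choose them. All 60 mice, 31 females and 29 males, were *ob/ob*, homozygous for the obese mutation of leptin, so every group lacked the hormone. They came from C57BL/6J (B6) and BTBR founders through F1 mice with a B6 father and a BTBR mother. They were given chow under a 12-h light and dark cycle and were killed with CO2 at 14 weeks after a fast of 4 h. The authors had picked them by genotype from a larger set of F2 mice, so their genotypes are not a random draw. The liver RNA of each mouse was measured once on an MOE430A and once on an MOE430B array, 120 arrays in all. Every mouse is a separate animal, and precision is limited by how many there are.

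In an F2 intercross an animal can inherit the same founder allele from both parents at a locus, or one of each. Animals that are heterozygous at more of the genome therefore lie closer to the F1 hybrid. Where alleles act additively the heterozygote lies midway between the homozygotes, so heterozygosity narrows the spread of a trait without moving its mean. Where one allele is dominant, or where the hybrid lies outside both parents (hybrid vigour), heterozygosity also moves the mean. Leptin reports fat stores to the brain, and mice without it overeat, become obese and insulin resistant, and store triglyceride in the liver. BTBR mice with the *ob* mutation are known for severe diabetes, and B6 mice with it are largely spared. Which founder the letters A and B stand for is not stated in the labels, the files or the methods, so genotypes keep their letters. At D6Mit86 on Chromosome 6 the high group held 15 A, 4 H and 0 B, and the low group 15 A, 3 H and 1 B. Whether this skew identifies the founders was not tested.

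Heterozygous calls made up 52.6 ± 3.27% (SD, n = 20) of the readable calls in the high group, from 49.7% to 61.5%. In the low group they made up 38.6 ± 3.66% (n = 20), from 28.3% to 42.6%. The groups differ in this by construction. The share of the next mouse above the low group was 42.7%, and that of the next mouse below the high group was 49.4%. Over all 60 mice 46.2% of the calls were H, 26.4% A and 27.4% B. Pooled over the group, the high group had 24.6% A and 22.8% B, and the low group 30.6% A and 30.5% B, so both kinds of homozygote were more common in the low group. The share of A among homozygous calls was 51.9% and 50.0% (two-sided permutation test, p = 0.532, adjusted p = 0.735 over 6 measures).

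**Figure D1:**
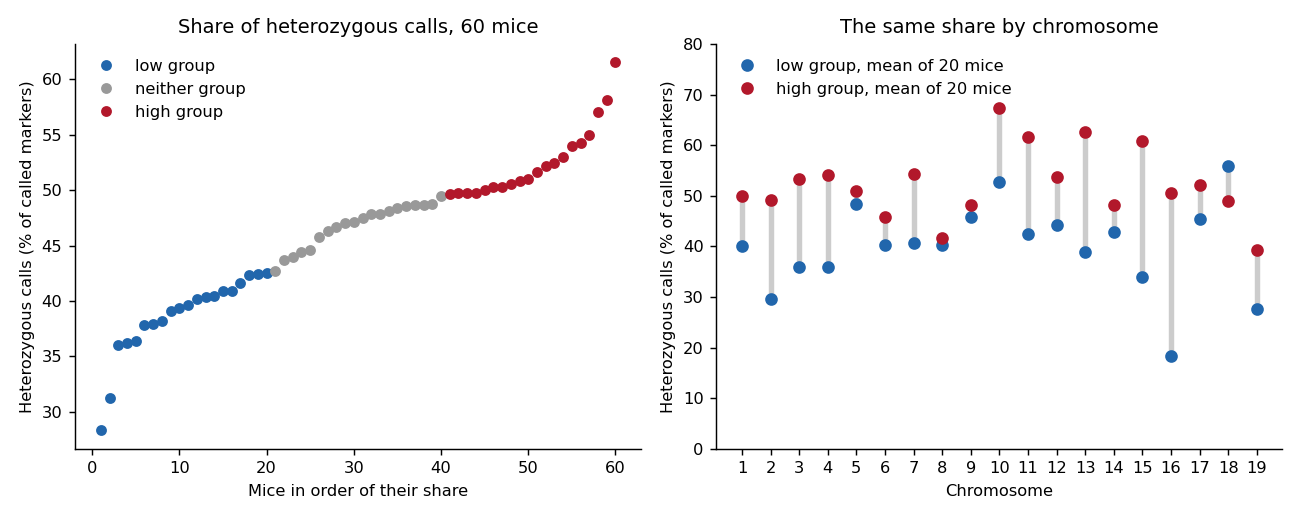
Share of heterozygous calls (% of readable calls) of each of the 60 mice, and the mean share per chromosome in the high and the low group (n = 20 each). The high group lies between 49.7% and 61.5% and the low group between 28.3% and 42.6%, and the chromosomes differ in how far the group means lie apart.

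The excess was spread over the genome but unevenly. The high group had the lower share of H at only 40 of the 194 markers and the same share at 5, and the higher share at the rest. It had the higher mean share on 18 of 19 chromosomes. The widest gap was on Chromosome 16, with 50.6 ± 35.3% against 18.4 ± 24.03%, followed by Chromosome 15 with 60.8 ± 26.8% against 33.96 ± 34.98%. On Chromosome 2 the means were 49.2% and 29.6%. Chromosome 18 was the exception, with 48.95% in the high group and 55.95% in the low group. A contrast of genome-wide heterozygosity in these mice is therefore also a contrast of genotype at single loci, and the effects of the 2 cannot be told apart where a locus differs between the groups.

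The groups held 13 females and 7 males (high) and 10 females and 10 males (low), with p = 0.523 by Fisher's exact test (two-sided). Sex was a covariate in the fit of transcripts, while the tests of phenotypes did not adjust for it. Missing calls had a median of 8.5 of 194 markers in the high group (2 to 39) and 12.5 in the low group (1 to 81). The pair of lowest shares of heterozygous calls, 28.3% and 31.3%, belonged to mice 472 and 549, which had the most missing calls (81 and 66). The correlation of arrays with each other, the first principal component of each array type, the share of missing calls and the balance of A and B were compared, and no adjusted p was under 0.610. In 6 mice an array correlated less with the others of its type (2 in the high group, 2 in the low group and 2 in neither), and values without them are given where they matter. Of the 10 hepatocyte markers 8 could be read, among them those for albumin and other plasma proteins, and their levels lay between the 98.97th and the 100th percentile. In whole liver, fewer cells of a type and less RNA per cell cannot be told apart. Markers of Kupffer, stellate, endothelial, bile duct, lymphoid, blood and fat cells had list medians between −0.02 and 0.02 on the log2 scale, high minus low. The exception was pancreatic acinar cells, whose 19 probe sets for digestive enzymes and related proteins were all higher in the high group (median 0.11). That rested on male mouse 343 of the high group, whose summed acinar level was 7609 against at most 3413 in any other mouse, and without it the median was 0.002.

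No transcript passed the test between the groups. Of 45,037 probe sets 0 (0%) passed a Benjamini-Hochberg adjusted p under 0.05 in limma, and the smallest adjusted p was 0.827. An unadjusted p under 0.05 was reached by 1911 probe sets (4.24%), 1033 of them higher (2.29%) and 878 lower (1.95%) in the high group. The median difference over all probe sets was 0.002 on the log2 scale, and the median size of a difference, whatever its sign, was 0.03.

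The intervals show how large a difference these mice leave room for. The 95% confidence interval of the difference lay within ±0.25 on the log2 scale, a fold of 1.19, for 42,627 probe sets (94.7%). It lay within ±0.50 for 44,798 (99.5%), and within ±0.10 for 39.8%. An observed difference exceeded 0.50 in 14 probe sets and 0.25 in 121 (0.269%). Differences ranged from −0.86 to 0.67.

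**Figure D2:**
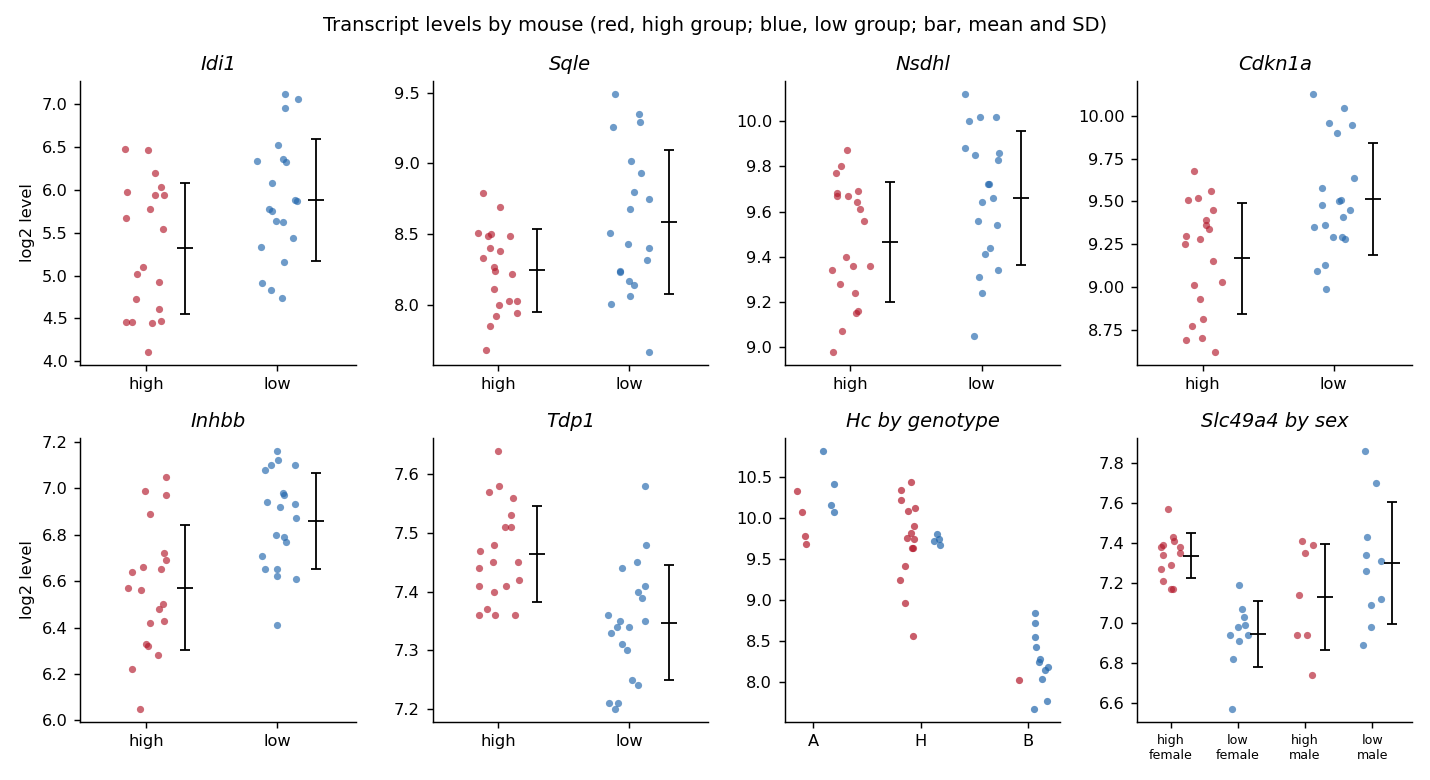
Log2 levels of single transcripts in the 20 mice of the high and the 20 mice of the low group, 1 point a mouse. The groups overlap for every transcript shown, including those with the smallest p-values.

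The genes with the smallest p-values upward were led by *Tdp1* on Chromosome 12, which encodes the enzyme that frees DNA from trapped topoisomerase I. Its log2 level was 7.36, 7.45 and 7.64 (lowest, median and highest) in the high group and 7.20, 7.35 and 7.58 in the low group. All 20 high mice lay above the median of the low group, but the ranges overlap. The difference was 0.13 (SE 0.03, 95% interval 0.07 to 0.19, unadjusted p = 4.23e-05, limma adjusted p = 0.953). When mouse 200 of the low group was left out the difference was 0.15 and the adjusted p was 0.0377, the only named gene to pass in any fit that left out 1 mouse.

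The other 9 genes of that rank cover unrelated tasks. They were *Fbxo46*, an F-box protein, *Spsb4*, with a SPRY domain and a SOCS box, and *Lrp12*, a membrane protein. *Smcr8* acts in autophagy, *Hrob* in homologous recombination, *Ube2b* in ubiquitin conjugation, *Fzd1* as a Wnt receptor and *Tulp3* in transport into cilia, and *4933406K04Rik* has no assigned role here. Differences of the 10 genes ran from 0.10 to 0.19 and p-values from 4.23e-05 to 0.000875. In *Lrp12* 11 high mice lay above every low mouse, at 5.63, 5.95 and 6.07 against 5.46, 5.78 and 5.93. None of the 10 had groups that do not overlap. A second probe set did not always follow, since 1 of 5 probe sets of *4933406K04Rik* and 2 of 4 of *Ube2b* had the same direction.

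The genes with the smallest p-values downward were led by *Inhbb*, the beta B subunit of activins and inhibins. Its level was 6.05, 6.57 and 7.05 in the high group and 6.41, 6.90 and 7.16 in the low group. Of the 20 high mice 17 lay below the median of the low group. The difference was −0.31 (SE 0.07, interval −0.45 to −0.17, unadjusted p = 7.32e-05, limma adjusted p = 0.9998), and the other probe set of the gene did not share its direction.

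*Aen*, a nuclease induced by p53 during apoptosis, was lower by the same sign in 4 of its 4 probe sets. Its level was 7.48, 7.67 and 7.76 in the high group and 7.58, 7.82 and 8.21 in the low group, and all 20 high mice lay below the low median. The difference was −0.17 (SE 0.04, interval −0.26 to −0.09, p = 0.000134). *Adk*, adenosine kinase, had the widest difference of the 20 genes named for their p-values at −0.43 (SE 0.11), with levels of 6.34, 6.69 and 7.23 against 6.56, 7.09 and 8.56. Only 3 of its 6 probe sets shared that direction.

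*Ap2b1*, a subunit of the clathrin adaptor, was lower by 0.20, with 19 of 20 high mice below the low median, though 1 of its 3 probe sets had that direction. *Zfp974*, *Cytl1*, *Nr2c2ap*, the axonemal dynein *Dnah2*, the vault protein *Parp4* and the cohesin regulator *Pds5b* made up the rest, from −0.17 to −0.09. Among the 20 genes 0 had groups that did not overlap, and every adjusted p was 0.953 or more.

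The share of such transcripts lay near the background on every chromosome, wherever the groups differed in heterozygosity. On Chromosome 16, 4.16% of 1251 probe sets had an unadjusted p under 0.05, on Chromosome 15 4.01%, on Chromosome 13 4.81% and on Chromosome 2 3.46%. The range over the chromosomes ran from 3.39% on Chromosome 9 to 4.91% on Chromosome 7, beside 4.24% over all probe sets. On Chromosome 18, where the low group was the more heterozygous, it was 3.62%.

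Among 21 lists of genes for liver pathways and complexes, with 768 probe sets, no member passed the test. The smallest adjusted p of any member was 0.9998. The list medians ran from −0.18 to 0.06, with 9 above 0 and 12 below. In 20 of the lists at most 15% of the probe sets had an unadjusted p under 0.05. Cholesterol synthesis and uptake stood apart with 37.1%, and fatty acid oxidation had 0% but nearly uniform signs. The lists were drawn up with earlier results of these mice known, and their members are correlated across mice, so the counts are descriptions.

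**Figure D3:**
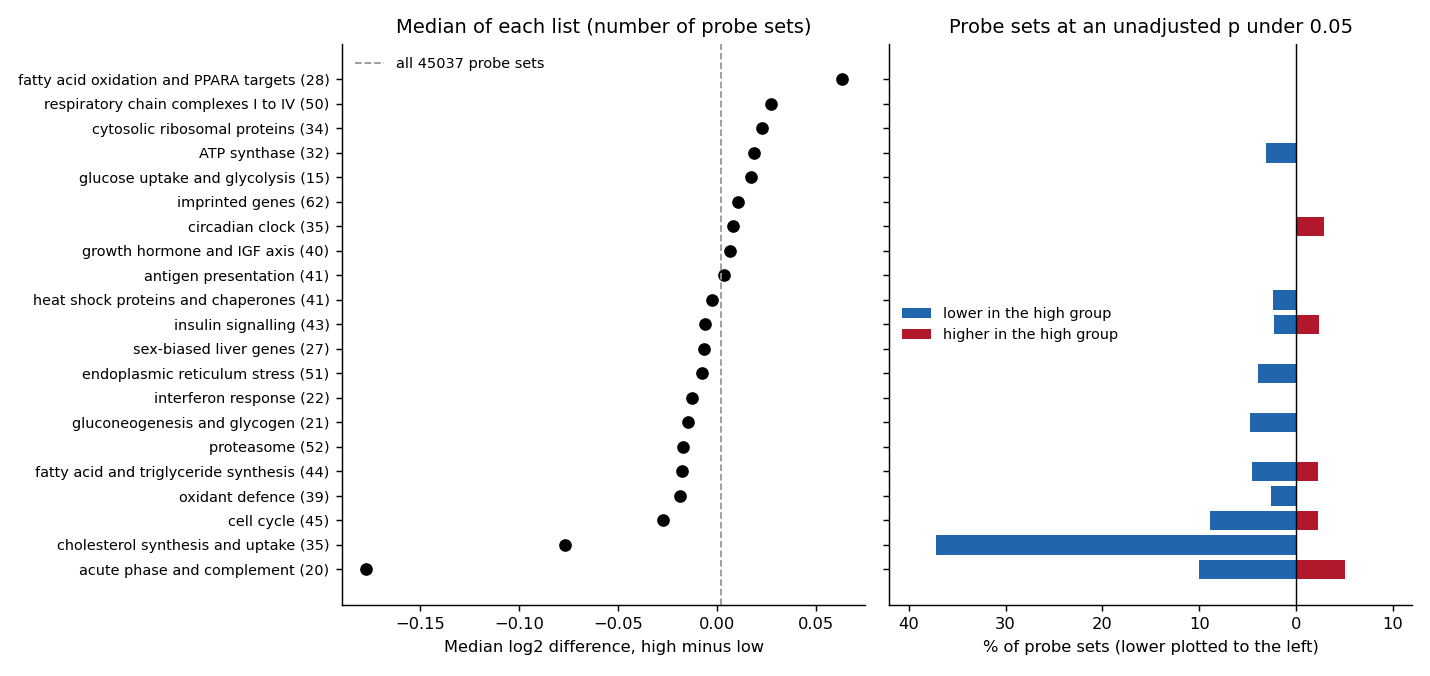
Median log2 difference (high minus low) of each of the 21 gene lists with its number of probe sets, and the percentage of its probe sets with an unadjusted p under 0.05, lower plotted to the left and higher to the right. Cholesterol synthesis and uptake has 37.1% lower and 0 higher, and the median over all 45,037 probe sets is 0.002.

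The enzymes of cholesterol synthesis were mostly lower in the livers of the more heterozygous mice, without passing the test. The liver makes cholesterol from acetyl-CoA through mevalonate, squalene and lanosterol, and the genes of the route are switched on together by SREBP2, which INSIG proteins hold back in the endoplasmic reticulum when sterols are plentiful. Of the 20 genes in the list 16 were read from probe sets with a single symbol, with 35 probe sets, and the others were not analysed here. Of the 35 probe sets 13 were lower and 0 higher at an unadjusted p under 0.05 (37.1%, beside 4.24% over all probe sets), 31 had a negative sign, and the median was −0.08. Of the 16 genes 15 had a negative median and 10 had at least 1 such probe set.

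The promoters of *Hmgcs1* and *Idi1* are shown because these are the early steps of the route with the widest differences. Each line gives the 300 bases around the transcription start, most of them before it, from RefSeq (GRCm38.p6, + strand, 5′ to 3′). Capitals mark the letters CCAAT or, on the other strand, ATTGG, the box read by NF-Y, and TCACNCCAC, one spelling of the sterol regulatory element, on either strand. The pair of motifs share no letters here. *Hmgcs1* lies at chr13:119690101-119690400 and *Idi1* at chr13:8885356-8885655.
Hmgcs1: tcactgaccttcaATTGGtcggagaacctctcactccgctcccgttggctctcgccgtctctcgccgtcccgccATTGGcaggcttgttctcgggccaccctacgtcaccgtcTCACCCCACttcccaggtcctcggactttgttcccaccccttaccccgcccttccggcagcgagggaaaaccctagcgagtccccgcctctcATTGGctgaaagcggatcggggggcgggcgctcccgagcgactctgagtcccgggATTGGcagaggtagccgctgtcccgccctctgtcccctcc
Idi1: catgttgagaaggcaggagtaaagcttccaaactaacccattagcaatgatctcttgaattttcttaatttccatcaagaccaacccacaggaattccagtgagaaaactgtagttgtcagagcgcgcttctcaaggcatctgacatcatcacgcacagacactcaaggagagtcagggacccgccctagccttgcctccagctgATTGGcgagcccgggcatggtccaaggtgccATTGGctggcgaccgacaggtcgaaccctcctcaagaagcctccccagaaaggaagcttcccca
A promoter was at hand for 13 of the 16 genes. CCAAT in either orientation was present in 12 of the 13 (92.3%) and in 37.9% of all 27,025 promoters of this length. TCACNCCAC was present in 1 of the 13 (7.69%), in *Hmgcs1*, and in 1.22% of all. A match is a description of letters, not of a bound site.

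*Hmgcs1* encodes the synthase of an early step of the route. Its level was 7.53, 9.82 and 11.06 in the high group and 8.71, 9.90 and 10.88 in the low group, a difference of −0.54 (SE 0.24, p = 0.0292). The medians lie close together, and the high group reached further down. All of its 5 probe sets were negative and 1 of them had a p under 0.05. *Idi1*, the isomerase that provides the activated isoprene unit, stood at 4.11, 5.32 and 6.48 against 4.74, 5.83 and 7.12. Its difference was −0.68 (SE 0.19, interval −1.08 to −0.29, p = 0.00109), with −0.50 (p = 0.00181) in its second probe set.

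The squalene steps had the same sign. *Sqle*, the squalene epoxidase, stood at 7.68, 8.26 and 8.79 against 7.67, 8.47 and 9.49, a difference of −0.40 (SE 0.11, interval −0.63 to −0.17, p = 0.00116). The low group spanned the whole range of the high group. *Fdft1*, which joins farnesyl units into squalene, was lower by 0.41 (p = 0.00484) and 0.26 in 2 of its 4 probe sets, and *Lss*, which closes the ring to lanosterol, by 0.16 (p = 0.0035) in 1 of 3. *Fdps*, the farnesyl diphosphate synthase, had −0.31 (p = 0.0969).

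The steps from lanosterol onward were similar. *Nsdhl*, a sterol dehydrogenase on the X chromosome, stood at 8.98, 9.48 and 9.87 against 9.05, 9.69 and 10.12, with 17 of 20 high mice below the low median and a difference of −0.24 (SE 0.07, p = 0.00189). *Cyp51* had −0.47 (p = 0.00592) and −0.18, *Dhcr7*, the last enzyme of the route, −0.34 (p = 0.00602) and *Msmo1* −0.33 (p = 0.0445). *Sc5d* was mixed, with −0.18, −0.01 and 0.14 in its 3 probe sets. The regulators lay near 0, with 0.003 and 0.01 for *Srebf2* and −0.001 (interval −0.27 to 0.27) for *Insig1*. Every adjusted p in the list was 0.9998.

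**Figure D4:**
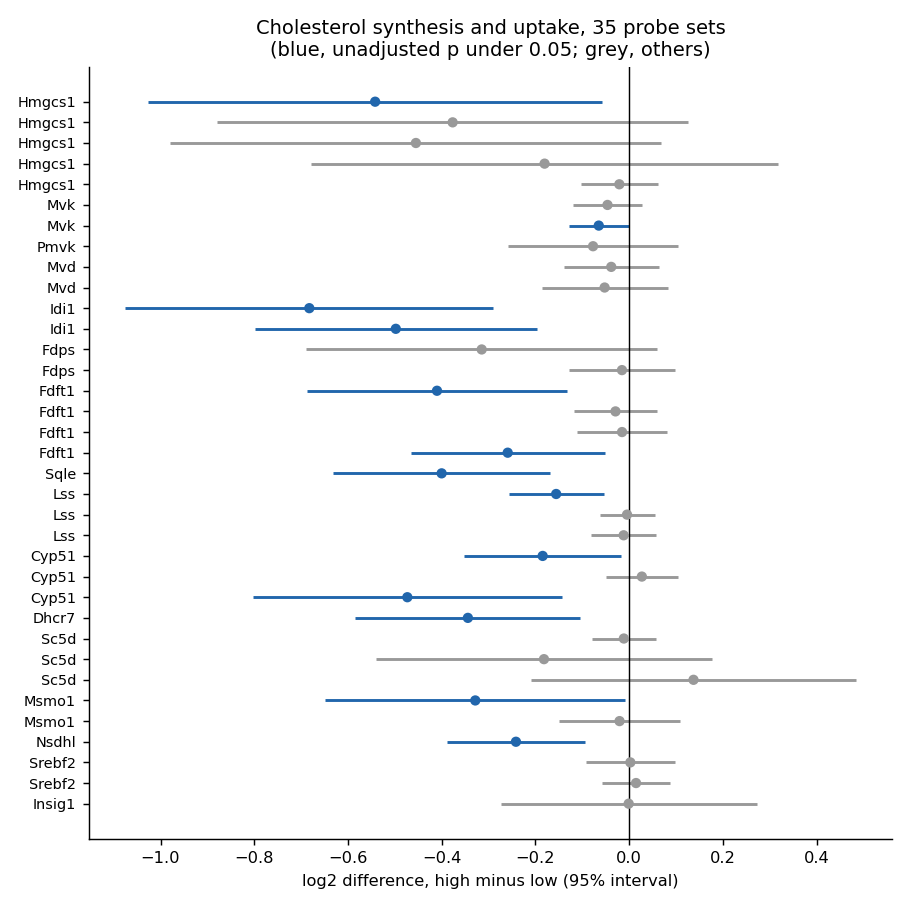
Log2 difference (high minus low) with its 95% interval for the 35 probe sets of cholesterol synthesis and uptake. Blue marks an unadjusted limma p under 0.05 and grey the others. Every interval lies left of 0 or across it.

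The members do not count as separate observations. Within groups the median pairwise correlation of the 16 genes over mice was 0.561 (quartiles 0.294 and 0.695 over 120 pairs), as a description. The mean level of the list was 7.54, 8.22 and 8.87 in the high group and 7.85, 8.33 and 9.08 in the low group, so the groups overlap over most of their range. Both sexes had the sign: 8.34 ± 0.25 (n = 13) against 8.53 ± 0.24 (n = 10) in females, and 7.91 ± 0.35 (n = 7) against 8.27 ± 0.39 (n = 10) in males. The number of lower probe sets depended on where the groups were drawn. It was 4 with 30 mice against 30 (median −0.03), 6 with chromosomes weighted equally, and 9 to 16 when each mouse was left out in turn, lowest without mouse 46 and highest without mouse 22. Without the mice with an array apart it was 11, and with heterozygosity at the Chromosome 2 marker D2Mit241 as a covariate it was 9 (median −0.15). That last fit held 38 mice, because mice 472 and 549 of the low group had no call at the marker. Heterozygous calls there were 12 of 20 in the high group and 2 of 18 in the low group. The covariate thus went with the group, and the mice also changed.

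Fatty acid oxidation and targets of PPARA, the receptor that switches oxidation on in fasting, leaned the other way. Of 28 probe sets 24 were positive (median 0.06) and 0 had an unadjusted p under 0.05, and 15 of the 17 genes read were positive. *Hadhb*, a subunit of the trifunctional protein, had 0.09 (p = 0.126) in 1 of 3 probe sets and 0.02 and 0.001 in the others. *Ehhadh*, a peroxisomal enzyme, had 0.17 (p = 0.239). *Ppara* itself had 0.15 (p = 0.195), 0.17 (p = 0.241) and −0.02 (p = 0.873) in its 3 probe sets. *Slc25a20*, the carnitine carrier, had −0.04 and 0.02 in its 2 probe sets. The lean was not stable: the median was 0.15 in females, −0.03 in males, and −0.001 with D2Mit241 as a covariate (38 mice).

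Fatty acid and triglyceride synthesis, the pathway that is driven up in *ob/ob* liver, was close to level (44 probe sets, median −0.02). *Lpin1*, a phosphatidate phosphatase and a coactivator of PPARA, stood at 8.11, 9.11 and 10.42 against 8.66, 9.81 and 10.38. Its difference was −0.54 (SE 0.20, p = 0.00881), with −0.39 (p = 0.0232) in its second probe set. *Srebf1*, the driver of lipogenic genes, had 0.25 (p = 0.0499). *Scd1*, the stearoyl-CoA desaturase, had −0.15 (interval −0.53 to 0.22) and −0.21 (interval −0.81 to 0.40). Its first probe set ranged from 10.94 to 13.73 against 11.91 to 13.76, with a median of 13.33 in both groups. *Fasn*, the fatty acid synthase, had −0.05 (interval −0.40 to 0.31).

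Acute phase and complement genes had the lowest median of any list, −0.18 over 20 probe sets, with 13 of 17 genes negative. *Orm2*, an acute phase glycoprotein, stood at 6.97, 8.04 and 11.33 against 7.53, 8.63 and 11.73 (−0.75, SE 0.36, p = 0.0409). *Saa4*, a serum amyloid A protein, had −0.26 (p = 0.0387). The neutrophil-associated *Lcn2*, also made by the stressed liver, stood at 8.04, 8.83 and 11.95 against 7.75, 9.83 and 12.67. Of the 20 high mice 17 lay below the low median, and the difference was −0.61 (SE 0.39, p = 0.13). The list median was −0.03 without the mice with an array apart and −0.06 without mouse 200 alone.

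Among cell cycle genes 4 of 45 probe sets were lower and 1 higher at an unadjusted p under 0.05, beside 1.95% lower and 2.29% higher over all probe sets. The 4 became 2 without mouse 22 and 6 without mouse 253. *Cdkn1a*, the inhibitor p21 that p53 induces, stood at 8.62, 9.27 and 9.68 against 8.99, 9.47 and 10.13. Of the 20 high mice 16 lay below the low median, and the difference was −0.36 (SE 0.10, interval −0.57 to −0.16, p = 0.000762), with −0.11 (p = 0.0286) in its second probe set. *Cdkn1a* is a brake on division. Of genes that drive or serve division, *Ccnd1* had −0.11 (p = 0.0373), *Mcm6* −0.08 (p = 0.0353) and *Tyms* 0.06 (p = 0.0418) in 1 of 4 probe sets.

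The mitochondrial lists were near 0. ATP synthase had a median of 0.02 over 32 probe sets. Its inhibitory factor *Atpif1* had −0.22 (SE 0.06, interval −0.35 to −0.09, p = 0.0014) in 1 of 3 probe sets, at 5.94, 6.46 and 7.02 against 6.38, 6.65 and 7.24, and −0.01 in the others. *Atp5b*, the catalytic beta subunit, had 0.09 (p = 0.0806). Respiratory chain genes had a median of 0.03 with 20 of 26 genes positive, and the proteasome −0.02 with 19 of 24 negative. In both lists 0 probe sets had an unadjusted p under 0.05.

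In the remaining lists single members carried the smallest p-values. *Nr1d2*, a repressor of the clock, had 0.10 (p = 0.0032) in 1 probe set and −0.05 (p = 0.749) in the other. *Ppargc1a*, the coactivator of gluconeogenesis, had −0.16 (p = 0.0124) in 1 of 5 probe sets and −0.03 to 0.001 in the others. *Nqo1*, a target of the oxidant sensor NRF2, had −0.14 (p = 0.0131). *Hspa8*, the constitutive cytosolic chaperone, had −0.09 (p = 0.0283) in 1 of 4 probe sets. *Dnajc3*, an inhibitor of the stress kinase PERK, had −0.24 (p = 0.0145) in 1 of 5 probe sets. The others had −0.23 to −0.05 (p = 0.199 to 0.536). *Pdpk1*, the kinase that activates AKT, had 0.10 (p = 0.0204) in 1 probe set and −0.02 (p = 0.737) in the other, and *Insr*, the insulin receptor, had −0.07 (p = 0.0383) in 1 of 3 probe sets. *Igfbp2*, an IGF-binding protein that leptin raises, had 0.33 (p = 0.0659) and *Igf1* −0.15 (p = 0.0569). Lists of ribosomal proteins, imprinted genes, antigen presentation, the interferon response, glycolysis and sex-biased genes had 0 probe sets at an unadjusted p under 0.05, and their medians lay between −0.01 and 0.02.

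Whether the sexes differed was tested by the interaction of group and sex. Of the 45,037 probe sets 0 passed, and 3259 (7.24%) had an unadjusted p under 0.05. The difference was larger in males for 1893 of them (4.2%) and larger in females for 1366 (3.03%), counted with sign. The genes named for the interaction and for females alone were chosen after their values were seen. The smallest adjusted p, 0.144, was that of *Mbl2*, a mannose-binding lectin of the complement system made by hepatocytes. In males its level was 10.00, 10.51 and 10.72 in the high group and 10.60, 11.03 and 11.28 in the low group, which overlap by little. In females it was 10.28, 10.88 and 11.31 against 10.33, 10.70 and 10.84. The differences were −0.56 in males and 0.21 in females, and the interaction was −0.77 (SE 0.14).

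*Insig2*, which holds SREBP proteins in the endoplasmic reticulum, had a like pattern. In males it stood at 6.82, 7.56 and 8.21 in the high group and 8.06, 8.49 and 8.82 in the low group (−1.01). In females it stood at 7.35, 8.07 and 9.02 against 6.92, 7.95 and 8.68 (0.23), and the interaction was −1.24 (SE 0.29, limma adjusted p = 0.613). *Aox1*, aldehyde oxidase, had −0.49 in males and 0.45 in females with the same adjusted p. These genes all come from the direction with the smaller count. In the other direction the smallest p-values were those of *Minar2*, with 0.23 in males and −0.04 in females, and *Ulk3*, with 0.13 and −0.08. Both had a limma adjusted p of 0.613.

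In females alone 3087 probe sets (6.85%) had an unadjusted p under 0.05 and 1 of 45,037 passed (0.00222%). It was that of *Slc49a4*, a transporter of the lysosomal membrane on Chromosome 16. That chromosome had the widest gap in heterozygosity, but whether genotype there bears on *Slc49a4* was not tested. In females its level was 7.17, 7.35 and 7.57 in the high group (n = 13) and 6.57, 6.96 and 7.19 in the low group (n = 10). The ranges touch only at their ends, and the difference was 0.39 (SE 0.06, limma adjusted p = 0.0134). In males it was 6.74, 7.14 and 7.41 (n = 7) against 6.89, 7.29 and 7.86 (n = 10), a difference of −0.17. The interaction was −0.56 with an adjusted p of 0.613. In both sexes together the difference was 0.16 (p = 0.0528), and the second probe set of the gene had 4.32 ± 0.12 and 4.29 ± 0.08 in females. In males alone 0 probe sets passed and 2085 (4.63%) had an unadjusted p under 0.05.

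Spread is the measure that additive alleles would move, since homozygotes hold both ends of the range. The distance of each mouse from its fitted value was compared between the groups by limma. Of 45,037 probe sets 0 passed (smallest adjusted p 0.810), and 2641 (5.86%) had an unadjusted p under 0.05, with the larger spread in the high group for 1363 (3.03%) and in the low group for 1278 (2.84%). This split was not stable: it was 2033 and 963 with chromosomes weighted equally, 1673 and 1043 with no covariate, 1590 and 965 with 15 mice against 15, and 960 and 1497 with 30 against 30. On simulated data this comparison recovered very few altered probe sets, so its count of 0 says little. Over all probe sets the median SD was 0.124 in the high group and 0.121 in the low group, and the SD was larger in the low group for 43.8%. The median ratio of the SD in the low group to that in the high group was 0.961.

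Single genes went both ways. *Stx6*, a syntaxin of vesicle fusion, had an SD of 0.0946 in the high group and 0.198 in the low group (p = 4.93e-05). *Cox16*, an assembly factor of cytochrome oxidase, had 0.0841 against 0.173, *Lox*, the lysyl oxidase that crosslinks collagen, 0.125 against 0.249, *Ptp4a2*, a phosphatase, 0.321 against 0.588, and *Dcaf8*, a ubiquitin ligase adaptor, 0.103 against 0.199. In the other direction *Dsc1*, a desmosomal cadherin, had 0.148 against 0.0713 (p = 6.97e-05), and *Bach1*, a repressor of heme oxygenase, 0.386 against 0.183. *Wdr37* had 0.153 against 0.071, *Rps18*, a ribosomal protein, 0.266 against 0.163, and *Cpt2*, a carnitine palmitoyltransferase, 0.185 against 0.107. All had an adjusted p of 0.810. The mean log2 level was 3.82 and 3.87 (high and low group) for *Dsc1* and 3.76 and 3.77 for *Wdr37*. These were the lowest levels among the genes named for spread.

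Transcripts that follow a marker on their own chromosome were examined by genotype. They were chosen in the 20 mice of neither group, as probe sets whose level had an absolute Pearson r of 0.8 or more with the number of B alleles at such a marker. That gave 94 probe sets of 80 genes, and in the other 40 mice 92 of the 94 kept the sign. A linear count of alleles favours transcripts whose heterozygotes lie between the homozygotes, so the position of the heterozygotes is largely set by this choice and is given as a description. Heterozygotes had a mean between those of the homozygotes in 93 of the 94 (98.9%), and in 79 they lay within the middle portion of the range, less than 0.5 of the distance from the midpoint to a homozygote. The A homozygotes were the higher in 71 and the B homozygotes in 23. These levels are probe set signals. Whether sequence differences between the founders under the probes changed them was not tested. The heterozygous mean lay above the midpoint in 77 and below it in 17. The midpoint is that of the log2 values, which lies below the midpoint of the unlogged levels. A position above it is therefore no measure of dominance. With the threshold at 0.7, 387 probe sets were chosen and 68.7% had heterozygotes between.

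*Gm7969*, a predicted gene, followed D13Mit13 with 7.24 ± 0.56 in A homozygotes (n = 6), 6.50 ± 0.26 in heterozygotes (n = 13) and 5.02 ± 0.17 in B homozygotes (n = 10). *Slc26a1*, a sulfate transporter of hepatocytes, followed D5Mit259 with 6.01, 5.41 and 4.38 in the same order. *Selenow*, a small selenoprotein, had 8.60, 7.98 and 7.28 at D7Mit56. In each the heterozygotes stood between, a little nearer to the higher homozygote on the log2 scale.

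The same order held in the others of the 10 with the highest r. *Hfe*, which governs hepcidin and is mutated in hemochromatosis, had 6.52, 6.43 and 6.17 at D13Mit16. *Zc3h4*, a zinc finger protein, had 7.50, 6.96 and 6.27, *Tm7sf3*, a membrane protein, 8.28, 7.93 and 7.36, and *Efhd2*, a calcium-binding protein, 10.56, 10.09 and 9.34. *Med1*, a Mediator subunit, had 7.37, 7.20 and 6.79, and the probe set annotated to *Mir1931* had 6.29, 5.88 and 5.2. Between the high and the low group these transcripts, with *Slc1a2*, differed by −0.20 to 0.19, with intervals that include 0.

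Over the 94 probe sets the median share of heterozygotes at the marker was 55% in the high group and 40% in the low group. Only 3 (3.19%) had an unadjusted p under 0.05 in mean level, beside 4.24% over all. The SD was larger in the low group in 52 of 94, with a median ratio of 1.04 (quartiles 0.88 and 1.20), beside 0.961 over all probe sets. Per mouse, the median distance of these transcripts from their midpoint, with the distance from the midpoint to a homozygote set to 1, was 0.575 ± 0.090 in the high group and 0.633 ± 0.135 in the low group. The difference was −0.06 (interval −0.13 to 0.02, two-sided permutation test, p = 0.12, adjusted p = 0.151 over 2 measures), within the spread between mice.

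*Hc*, which encodes complement C5, differed by genotype at a marker whose genotypes differed between the groups. It lies on Chromosome 2, and at D2Mit296 the high group held 4 A, 15 H and 1 B while the low group held 4 A, 4 H and 11 B. Its level was 8.02, 9.77 and 10.44 in the high group and 7.67, 8.78 and 10.82 in the low group. The difference was 0.61 (SE 0.25, interval 0.10 to 1.11, unadjusted p = 0.0191, limma adjusted p = 0.9998), and the SD was 0.613 against 0.977. By genotype the means were 10.17 ± 0.36 in A, 9.73 ± 0.46 in H and 8.24 ± 0.35 in B. Heterozygotes thus lay 0.52 above the midpoint of the log2 values. Heterozygotes of the groups stood at the same level, 9.73 ± 0.52 (n = 15) and 9.74 ± 0.06 (n = 4). B homozygotes of the low group stood at 8.26 ± 0.36 (n = 11), and the sole one of the high group at 8.02.

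None of the 24 deposited phenotype columns passed adjustment between the groups (two-sided permutation tests, lowest adjusted p 0.493). Plasma glucose at 10 weeks was 324.6 ± 105.7 mg/dl (n = 20) in the high group and 360.9 ± 132.6 mg/dl (n = 20) in the low group, a difference of −36.2 (interval −113 to 40.7, p = 0.345). Within sex the difference was −17.4 (p = 0.596). It was −75.8 (p = 0.0798) with 15 mice against 15 and −78.2 (p = 0.0397, adjusted p = 0.323) with groups from the table of 145 markers. At 8 weeks it was 289.7 ± 101.2 (n = 18) against 332.1 ± 131.3 (n = 20), a difference of −42.4 (p = 0.276). That became −17.1 (p = 0.613) within sex, −73.3 with 15 against 15 and −67.7 with 145 markers. Glucose of single mice ran from 180.8 to 527.4 mg/dl and from 101.8 to 598.7 mg/dl at 10 weeks, so the groups overlap almost wholly.

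**Figure D5:**
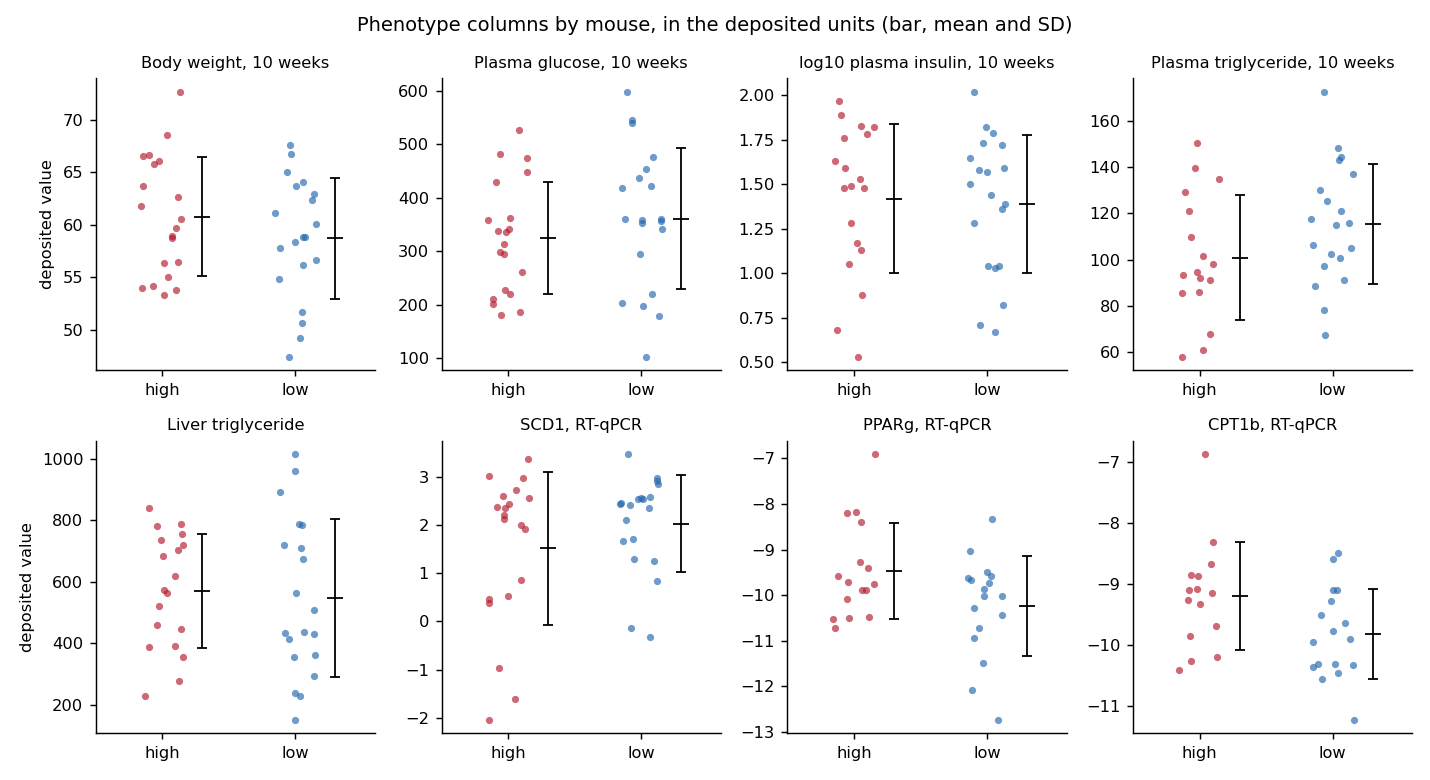
Phenotypes of single mice in the high and the low group with group means, as deposited values. The groups overlap in each panel, and the lowest adjusted p over the 24 columns is 0.493.

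Body weight at 10 weeks was 60.8 ± 5.68 g (n = 20) against 58.7 ± 5.79 g (n = 20), a difference of 2.09 g (interval −1.58 to 5.76, p = 0.258). Plasma insulin at 8 weeks was 36.6 ± 21.5 ng/ml (n = 16) against 27.0 ± 13.9 ng/ml (n = 20), a difference of 9.6 (interval −3.18 to 22.4, p = 0.113). On the log10 scale that difference was 0.0916 (permutation p = 0.329). The values at 8 weeks came from 13 females and 3 males in the high group and 10 females and 10 males in the low group. By sex the difference in ng/ml was 10.4 in females and −0.923 in males. At 10 weeks insulin was 37.03 ± 26.69 against 33.58 ± 25.21 ng/ml (p = 0.681). Within sex the differences in insulin were 6.38 (p = 0.259) at 8 weeks and 1.29 (p = 0.873) at 10 weeks. The intervals leave room for a weight gap of several grams and an insulin gap as large as the SD.

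Plasma triglyceride at 10 weeks was 100.9 ± 26.97 mg/dl (n = 17) against 115.4 ± 25.81 mg/dl (n = 20), a difference of −14.5 (interval −32.3 to 3.22, p = 0.105). At 8 weeks it was 99.48 ± 14.75 against 113.8 ± 40.93 mg/dl, a difference of −14.3 (p = 0.224). Within sex these differences were −9.50 (p = 0.235) and −8.26 (p = 0.435). Liver triglyceride was 228.6, 572.9 and 839.7 (lowest, median and highest, n = 19) against 151.1, 471.9 and 1015 (n = 20). The difference of the means was 22.2 (interval −123 to 167, permutation p = 0.758). The deposited unit is mg/g tissue. In that unit the highest value would exceed the mass of the tissue, so the unit is uncertain and the values are only compared between mice. The low group held both the leanest and the fattest liver.

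RT-qPCR values of the liver are cycle differences to beta-actin, and their sign is not stated in the sources used here. Against the array they rose together for the fatty acid synthase: over 50 mice Pearson's r was 0.894 and Spearman's rho 0.849 (permutation p = 1e-05 each, the smallest that the permutations can give, adjusted p = 1.8e-05 over 9 genes). Without the 2 mice farthest from the median r was 0.897. For *Scd1* r was 0.880 and rho 0.735 over 60 mice with the same p-values, and 0.856 without the 2 farthest. A larger value therefore goes with more transcript for these genes. The exception was the column named PDI, set against *P4hb*, with r −0.350 (p = 0.0139) and rho −0.358 (p = 0.0116) over 49 mice, adjusted p 0.0139 and 0.0116, and r −0.300 without the 2 farthest.

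The lowest p-values of the phenotypes were in RT-qPCR. CPT1b, a carnitine palmitoyltransferase best known from muscle, was −9.20 ± 0.89 (n = 15) against −9.82 ± 0.74 (n = 17), a difference of 0.622 cycles (interval 0.0251 to 1.22, permutation p = 0.0366, adjusted p = 0.493). PPARg, the receptor that promotes fat storage, was −9.47 ± 1.05 (n = 16) against −10.2 ± 1.10 (n = 17), a difference of 0.768 (interval 0.00463 to 1.53, permutation p = 0.0479, adjusted p = 0.493). The difference was 1.47 in males and 0.174 in females. On the array *Pparg* had 0.12 (p = 0.109). Beta-actin, the reference of these values, differed by 0.371 cycles (permutation p = 0.138, adjusted p = 0.551). Male mouse 61 of the high group had the highest beta-actin Ct of both groups, 25.43. It also had their highest values of PPARg (−6.91), CPT1a (2.77) and SREBP1 (−1.15). How far the differences rest on this mouse was not tested.

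CPT1a, the entry enzyme of mitochondrial oxidation in liver, differed by 0.593 (p = 0.0617), while its probe set *Cpt1a* that follows the assay had 0.01. SCD1 was 1.517 ± 1.583 (n = 20) against 2.029 ± 1.003 (n = 20), a difference of −0.512 (interval −1.37 to 0.341, p = 0.231), with −1.35 in males and −0.134 in females. FAS, GPAT, PEPCK, SREBP1, ACO, PDI, UCP2 and PLTP differed by −0.346 to 0.474 cycles with p-values of 0.162 to 0.931.

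Over all mice with a value, the share of heterozygous calls was set against each of the 24 columns. No relation passed (lowest adjusted p 0.481 for Pearson's r and 0.567 for Spearman's rho, permutation tests). The lowest p of Spearman's rho was that of CPT1b, with rho 0.306 (p = 0.0329, adjusted p = 0.567) and r 0.254 (p = 0.0796, adjusted p = 0.481) over 49 mice, and r was 0.429 without the 2 mice farthest from the median share. The lowest p of Pearson's r was that of PEPCK, the first enzyme of gluconeogenesis, with r −0.266 (p = 0.0394, adjusted p = 0.481) and rho −0.240 (p = 0.0627, adjusted p = 0.567) over 60 mice. Without the 2 mice farthest from the median share r was −0.183. For PPARg r was 0.291 (p = 0.0405, adjusted p = 0.481) and rho 0.202 (p = 0.158, adjusted p = 0.567) over 50 mice, and r was 0.256 without the 2 farthest.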

How the data were processed

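Liver RNA of 60 F2 mice was hybridized to MOE430A and MOE430B arrays. The authors read cell intensities with MAS5 and estimated expression by RMA, separately for each array type, and deposited the result as log2 values. Program versions were not given in the sources used here. No level was compared between array types or between probe sets, and the 64 control probe sets per array type did not enter. The value of MOE430A was used for the 100 probe sets on both types, which left 45,037. Of these 34,945 had a single gene symbol in the platform annotation with symbols updated by RefSeq, 932 had several and 9160 had none, for 18,193 genes. Probe sets with several symbols were tested without a name. RMA shrinks differences of transcripts near background, where probe sets carry little signal.

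Phenotypes were used as the authors deposited them, with insulin also as deposited log10 values, and RT-qPCR values as differences from beta-actin. A deposited genotype table of further mice without arrays was not used here.

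Groups came from the share of H at 194 markers, with ties broken by mouse number. Transcripts were compared with limma 3.58.1 (R 4.3.3) with sex as a covariate, and the spread by the absolute residuals of that fit, with Benjamini-Hochberg adjustment over all probe sets at 0.05. Phenotypes were compared by two-sided permutation tests with 100,000 resamples (Python 3.11.15, numpy 2.4.6, scipy 1.17.1, pandas 2.3.3). Figures were drawn with matplotlib 3.10.9. The fits were tested on simulated data. An array was called apart if its median correlation with arrays of the same type was over 3 MAD under the median of those correlations.

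The groups, the genes named and the gene lists were chosen with earlier results of these data known. Named genes were the 10 with the smallest p in each direction for the mean level, 5 in each direction for the spread, 10 own-chromosome transcripts, the member of each list with the smallest p in each direction, every phenotype column, the ATP synthase genes, *Hc* and *Scd1*. Other list members and the interaction genes were picked later, with their values in view. The distance of each mouse from the midpoint, the promoter letters and the interval counts were added after the design was set.

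Alternatives changed the group sizes, the markers, the weight of chromosomes, the covariates, the filter on low levels, the normalization, the variance model and the mice.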

Additional observations from a re-analysis of the deposited data

How the results depend on the processing

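The count of probe sets past the adjusted threshold for mean level was 0 under every alternative except females alone, where it was 1, and leaving out 1 mouse in turn, where it was 0 to 1 (*Tdp1* without mouse 200, an unnamed probe set without mouse 253). The unadjusted count of 1911 became 941 with probe sets below the median level left out, where fewer probe sets were tested, 3087 in females alone, and 1648 to 2317 with 1 mouse left out. The split of higher and lower moved from 1033 and 878 to 696 and 1131 with 30 mice against 30, to 596 and 882 with the genotype table of 145 markers, and to 1363 and 1724 in females alone. The cause was not tested. For the interaction with sex, 3259 became 5432 with a slope over 60 mice. For spread, 2641 became 1322 with probe sets below the median level left out and 2447 to 2832 with 1 mouse left out, with 0 to 0 past the adjusted threshold. The share of own-chromosome transcripts with heterozygotes between was 68.7% at a threshold of 0.7. No paired analysis was possible because the mice carry no replicate numbers that pair them across groups.

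No named transcript or phenotype that changed sign had passed the adjusted threshold. With chromosomes weighted equally the difference was −1.36 for ins8wk (insulin at 8 weeks), −1.73 for ins10wk, −0.107 for logins8, −0.083 for logins10, 5.35 for trigly8 (triglyceride at 8 weeks), −33.4 for LiverTG (liver triglyceride), −0.311 for PDI and −0.0598 for UCP2. Within sex it was −0.00895 for logins10. With 30 mice against 30 it was 4.07 for trigly8 and −0.268 for PDI, and with 15 against 15 it was 0.106 for FAS, −0.363 for PDI, −0.203 for UCP2 and 0.252 for PLTP. With 145 markers it was 0.374 for FAS, 0.0975 for ACO and 0.343 for PLTP. Without mice with an array apart it was −38.1 for LiverTG and 0.0628 for ACO.

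Among transcripts, in males alone the difference was −0.00929 for *Hadhb*, −0.15 for *Sc5d*, −0.0601 for *Pcx*, −0.007 for *Khk* and 0.00329 for *Insr*. In females alone it was 0.0773 for *Slc25a20*, −0.00115 for *Txnrd1*, and 0.12 and 0.16 for the probe sets of *Scd1*. For *Scd1* it was 0.0063 and 0.0524 with 30 mice against 30, and 0.0711 and 0.147 with 145 markers. *Khk* had −0.032 with chromosomes weighted equally, and *Sdhc* −0.00424 and *Uqcrb* 0.0225 with 30 against 30. *Stat2* had −0.00421 with 145 markers, and *Cyp2b9* −0.15 and *Ifit1* 0.0358 with heterozygosity on Chromosome 2 as a covariate (38 mice). The other alternatives, 979 values of named transcripts, 84 of spread and 146 of phenotypes, kept their direction and their side of the threshold.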
